A study of Mus musculus with 60 samples.

Results

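The p53 and BCL2 family apoptosis genes considered here are the p53 gene Trp53, its ubiquitin ligase gene Mdm2, and 8 genes of the BCL2 family: Bax, Bbc3, Pmaip1, Bcl2l11, Bid, Bcl2, Bcl2l1 and Mcl1. The 10 genes were chosen by name, with earlier results of these data known. A probe set counted for a gene only where the array annotation gave that symbol alone. Of them 8 were measured, by 28 probe sets, among 18193 genes tested, while Trp53 and Bax had no probe set with that symbol alone and are not analysed here. For each gene the probe set with the widest interquartile range over the arrays stood for it, and the other probe sets are given beside it.

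Islets came from male pIns-MYCERTAM mice on a CBA-C57BL/6 background, in which the insulin promoter drives a fusion of MYC and a modified oestrogen receptor in beta cells, and 4-hydroxytamoxifen switches the fusion protein on. The age is 8 to 12 weeks in one label and 3 months in another. In MycON mice 1 mg of 4-hydroxytamoxifen was given each day into the abdomen, and MycOFF mice received peanut oil. Each state was combined with exendin-4, a GLP-1 receptor agonist injected under the skin at 50 µg/kg, or with water, beginning 2 days earlier, and islets were collected by laser from frozen pancreas sections at 4, 8, 16, 32 and 72 h. Every mouse carried the fusion gene, and no mouse without it received 4-hydroxytamoxifen, so an effect of the drug and an effect of MYC cannot be told apart. The groups used here hold 12 arrays of MycON with exendin-4, 13 of MycON with water, 15 of MycOFF with exendin-4 and 12 of MycOFF with water, or 2 to 3 arrays at each time. The submitters set aside 8 further arrays. The labels call the arrays of a group biological replicates without naming an animal, so the p-values measure the spread between these arrays.

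BCL2 family proteins set whether a cell opens its outer mitochondrial membrane, the step that releases cytochrome c and starts the caspase cascade. BCL2, BCL-XL (from Bcl2l1) and MCL1 hold the pore-forming proteins BAX and BAK in check, and the BH3-only proteins PUMA (Bbc3), NOXA (Pmaip1), BIM (Bcl2l11) and BID release that hold. p53 activates the genes of several BH3-only proteins and of its own inhibitor MDM2, and MYC, when forced on in beta cells, is known to drive both division and apoptosis.

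Each deposited value is on a log2 scale and says how far a probe set lay from its own median over the 60 arrays, so levels cannot be compared between genes and the presence of beta cell markers cannot be read from them. The spread of all values in an array, as a standard deviation, was 0.284 to 0.949 among the 52 arrays used and 0.969 to 1.40 among the 8 set aside. It was above 0.65 in 4 of the arrays used, which were MycON with exendin-4 at 72 h replicate 1, and MycOFF with exendin-4 at 4 h replicate 2, at 16 h replicate 3 and at 72 h replicate 2. These 4 arrays hold the extreme values of most members. They carry the highest value of Mcl1 (1.58) and Mdm2 (1.95), both in MycOFF with exendin-4 at 72 h, of Bcl2 (2.83), Bcl2l11 (1.96) and Pmaip1 (0.86), all in MycON with exendin-4 at 72 h, and of Bcl2l1 (1.28) in MycOFF with exendin-4 at 4 h. Values without these 4 arrays, a check added after the data had been seen, are given where they change a call or a direction or where 1 of the arrays is named. In a bulk sample of islets, fewer cells of a type and less RNA per cell cannot be told apart.

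Upstream sequence is shown for Mcl1, the member that passed the test below, and for Bbc3. Among the members searched, only Bbc3 held the MYC binding motif upstream. The windows are those of RefSeq on GRCm38.p6, 300 bases from 250 before the transcription start to 50 after it, at chr3:95658471-95658770 (plus strand) for Mcl1 and chr7:16310181-16310480 (plus strand) for Bbc3. The E-box CACGTG is in capitals.
Mcl1: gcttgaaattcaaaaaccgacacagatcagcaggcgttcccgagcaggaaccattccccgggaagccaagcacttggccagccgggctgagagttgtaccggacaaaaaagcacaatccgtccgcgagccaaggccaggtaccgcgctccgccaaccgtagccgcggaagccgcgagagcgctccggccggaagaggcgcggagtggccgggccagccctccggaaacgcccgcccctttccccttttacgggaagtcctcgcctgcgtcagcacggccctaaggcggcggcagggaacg
Bbc3: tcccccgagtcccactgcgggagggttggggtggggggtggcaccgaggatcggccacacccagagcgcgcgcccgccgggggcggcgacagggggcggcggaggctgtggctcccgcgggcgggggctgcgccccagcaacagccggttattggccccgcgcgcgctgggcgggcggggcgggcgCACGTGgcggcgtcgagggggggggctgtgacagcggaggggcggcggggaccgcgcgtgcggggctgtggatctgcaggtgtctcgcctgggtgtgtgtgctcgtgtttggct
CACGTG reads the same on both strands and was the single motif searched, so other motifs at or around it were not examined. It occurred in 1 of the 12 windows searched for 7 members (8.33%), 64 bases before the start in 1 of the 3 Bbc3 windows. Over all genes it occurred in 2349 of 32851 windows (7.15%). Windows of 1 chromosome were left out for the members and not for all genes, and no Pmaip1 window was searched. These shares are therefore not on the same basis. The absence of CACGTG from the Mcl1 window says only that these letters are not there.

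Between MycON and MycOFF islets, averaged over the 5 times and both injections, Mcl1 was the member that passed the test, and it was higher in MycON islets. It was 1 of 8 members, or 12.5%, where 10% of all genes tested passed (6.56% higher and 3.48% lower), so the share among the members was close to that of all genes. At an unadjusted p under 0.05 in limma there were 2 of the 8 members, Mcl1 and Mdm2, beside 3928 of all 18193 genes. The median difference over the 8 members was -0.0055 log2 units, beside -0.026 over all genes. The BH3-only genes Bbc3, Pmaip1, Bcl2l11 and Bid lay within 0.13 log2 units of no difference.

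**Figure D1:**
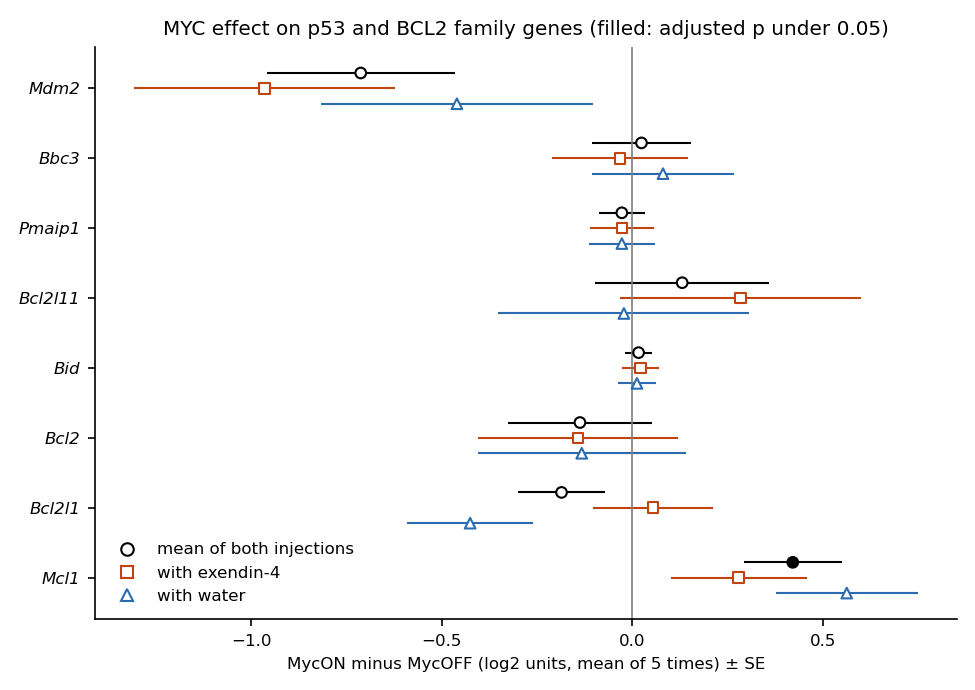
Log2 difference MycON minus MycOFF (horizontal axis, log2 units, with standard error bars) of the 8 measured members, as the mean of both injections, with exendin-4 and with water. Mcl1 at 0.42 is the filled point, the single value past the threshold; Mdm2 lies to the left at -0.71, and the BH3-only genes lie near 0.

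Mdm2, the ligase that marks p53 for degradation, had the widest difference of any member but did not pass. Its deviation ran from -2.84 through a median of -0.41 to 0.99 in the 25 MycON arrays, and from -1.66 through 0.37 to 1.95 in the 27 MycOFF arrays. The medians lay on opposite sides of 0 and the ranges overlapped widely. The difference was -0.71 ± 0.25 log2 units (SE; 95% interval -1.22 to -0.21; 1.64-fold lower; limma adjusted p = 0.0623).
The adjusted p came under the threshold under quantile normalization (-0.75, limma adjusted p = 0.0418), on the mean of its probe sets (-0.31, limma adjusted p = 0.0212), with genes of low spread left out (limma adjusted p = 0.0420) and with the replicate number as a block (-0.75, limma adjusted p = 0.0484). It also did so without 1 of 10 arrays, where adjusted p was as low as 0.0131 without MycON exendin-4 32 h replicate 2. Without the 4 arrays of wide spread the difference was -0.64 (limma adjusted p = 0.0904). The other Mdm2 probe sets lay at -0.07 ± 0.12 and -0.15 ± 0.06 log2 units, and neither passed.

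By time, Mdm2 stood furthest apart at 8 h. The 3 MycON exendin-4 arrays were at -0.67, -1.48 and -0.36 log2 units and the 3 MycON water arrays at 0.29, 0.71 and -0.64, against 0.99, 1.50 and 0.26 in MycOFF with exendin-4 and 0.96 and 1.08 in MycOFF with water. With exendin-4 the MycON and MycOFF arrays of 8 h did not overlap, and with water all MycON arrays lay below both MycOFF arrays. The difference at 8 h was -1.33 ± 0.54 (95% interval -2.41 to -0.24; limma adjusted p = 0.253), and the other times gave -0.77 at 4 h, -0.63 at 16 h, -0.38 at 32 h and -0.46 at 72 h. Mdm2 was below 0 in this comparison at all 5 times without passing at any, and without the 4 arrays of wide spread it was at 0.16 ± 0.55 at 72 h. The single lowest Mdm2 value, -2.84, came from a MycON exendin-4 array at 32 h whose partner array was at 0.28.

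Mdm2 differed by -0.97 ± 0.34 between MycON and MycOFF with exendin-4 (95% interval -1.66 to -0.27; limma adjusted p = 0.127) and by -0.46 ± 0.36 with water (95% interval -1.19 to 0.27; limma adjusted p = 0.715). The difference between these 2 values, the interaction, was -0.50 ± 0.49 (95% interval -1.51 to 0.50).

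Bbc3, which encodes PUMA, a p53-induced BH3-only protein, was spread evenly about 0 in both states. It ran from -0.85 through 0.04 to 0.86 in MycON arrays and from -0.83 through 0.01 to 1.13 in MycOFF arrays, and the 2 ranges nearly coincided. The difference was 0.02 ± 0.13 log2 units (95% interval -0.24 to 0.29) on the single probe set of the gene. This bounds a rise at 0.29 log2 units only for the average over times and injections. At single times the intervals were wider, and at 16 h the interval ran from -0.45 to 0.81. With water the averaged difference was 0.08 ± 0.19 and with exendin-4 -0.03 ± 0.18. How far the Bbc3 signal was above background cannot be read from centred values.

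Pmaip1, which encodes NOXA, the BH3-only protein that binds MCL1, showed a narrow spread on its single probe set. Values ran from -0.13 through -0.04 to 0.86 in MycON arrays and from -0.21 through 0.01 to 0.68 in MycOFF arrays. The highest value of each state came from an array of wide spread. The difference was -0.03 ± 0.06 (95% interval -0.15 to 0.10), and it was -0.03 with either injection. The interquartile range of Pmaip1, 0.126 log2 units, was at percentile 32.1 of all genes, and centred values do not show how far its signal was above background.

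Bcl2l11, which encodes BIM, the BH3-only protein that binds all the anti-apoptotic relatives, was among the most variable members, with an interquartile range of 0.915 log2 units. It ran from -0.96 through 0.03 to 1.96 in MycON arrays and from -2.82 through -0.07 to 1.60 in MycOFF arrays, and most arrays of both states lay in a common range. The difference was 0.13 ± 0.23 (95% interval -0.33 to 0.60). By time it was 0.59 at 4 h, -0.70 at 8 h, -0.56 at 16 h, 0.46 at 32 h and 0.85 at 72 h, with no time past the threshold (limma adjusted p from 0.627 to 0.935). At 72 h the MycON arrays with exendin-4 were at 1.96, 0.91 and 1.23 and those with water at 0.58, 1.16 and -0.58, against -0.18, 1.56 and -0.62 in MycOFF with exendin-4 and -0.23 and -0.16 in MycOFF with water. The MycON arrays with exendin-4 at 72 h were thus all higher than 4 of the 5 MycOFF arrays and overlapped the fifth, which is an array of wide spread. Without the arrays of wide spread the difference of Bcl2l11 at 72 h was 1.03 ± 0.42 (limma adjusted p = 0.237), and at 4 h it was 0.09. The change of the MycON minus MycOFF difference over time had a limma adjusted p of 0.679 in the F test.

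Bid encodes a protein that caspase 8 cleaves into an active form that reaches the mitochondrion. Bid hardly varied over the arrays used, with an interquartile range of 0.056 log2 units at percentile 11.4 of all genes. As for Pmaip1, centred values do not show how far its signal was above background. The difference was 0.02 ± 0.03 (95% interval -0.05 to 0.09). At 4 h it was 0.17 ± 0.08 (limma, unadjusted p = 0.0304, adjusted p = 0.432). Of the 5 MycON arrays at 4 h, 1 array with exendin-4 was at 0.72, the next highest was at 0.09 and the others lay between -0.024 and -0.003 log2 units. That 4 h difference therefore came mainly from 1 array.

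Bcl2, the founding anti-apoptotic gene, had a median of -0.13 in MycON arrays (-0.29 to 2.83) and of 0.01 in MycOFF arrays (-0.32 to 2.19). In both states a few arrays stood well above the rest. The difference was -0.14 ± 0.19 (95% interval -0.52 to 0.25). Its widest value by time was -0.90 ± 0.45 at 16 h (95% interval -1.82 to 0.03; limma adjusted p = 0.388). At that time the MycON arrays were at 0.44 and -0.13 with exendin-4 and at -0.22 and -0.07 with water, and MycOFF arrays were at 1.13, -0.14 and 2.19 with exendin-4 and at 1.47 and 0.01 with water. Only 3 MycOFF arrays were above all MycON arrays, and 1 of them is an array of wide spread, without which and the other 3 the difference was -0.61 ± 0.33 (limma adjusted p = 0.561). The other 4 Bcl2 probe sets had differences of 0.19, 0.03, 0.11 and 0.01, on the opposite side of 0 from the probe set that stood for the gene, and none passed. Under quantile normalization the probe set that stood for Bcl2 also changed side, to 0.26 (limma adjusted p = 0.226).

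For Bcl2l1, the gene of BCL-XL, the values are given by injection, because the 95% interval of its interaction lay above 0, though none of its values passed. With water its deviation ran from -1.10 through a median of -0.23 to 0.34 in the 13 MycON arrays and from -0.46 through 0.25 to 0.79 in the 12 MycOFF arrays. With exendin-4 it ran from -0.72 through 0.27 to 0.76 in the 12 MycON arrays and from -0.42 through -0.01 to 1.28 in the 15 MycOFF arrays. The MycON median was thus the lower with water and the higher with exendin-4, and the ranges overlapped in both.
The difference was -0.43 ± 0.17 with water (95% interval -0.76 to -0.09; limma adjusted p = 0.188) and 0.05 ± 0.16 with exendin-4 (95% interval -0.27 to 0.38). The interaction was 0.48 ± 0.23 (95% interval 0.01 to 0.95; limma adjusted p = 1.00), and none of the 18193 genes passed in it (0% of genes). Without MYC activation exendin-4 changed no member past the threshold, and Bcl2l1 differed there by -0.07 ± 0.16 between exendin-4 and water, against 0.41 ± 0.17 in MycON islets (95% interval 0.07 to 0.75; limma adjusted p = 0.723).

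At 72 h the Bcl2l1 arrays of MycON with exendin-4 were at 0.59, -0.11 and 0.40 and those of MycON with water at -0.40, -0.41 and -0.56 log2 units. MycOFF arrays of that time were at 0.11, 0.03 and -0.13 with exendin-4 and at 0.18 and -0.46 with water. Among MycON arrays at 72 h the 2 injections did not overlap, which was seen at 16 h too, where the arrays with exendin-4 were at 0.76 and 0.59 and those with water at -0.23 and 0.34. At 4, 8 and 32 h the injections overlapped. The other 3 Bcl2l1 probe sets differed by -0.03 to -0.04 between MycON and MycOFF and had interquartile ranges of at most 0.07 log2 units, against 0.546 for the probe set that stood for the gene.

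Mcl1 encodes a short-lived anti-apoptotic protein that many cells need for survival. Its deviation ran from -0.24 through a median of 0.21 to 1.08 in the 25 MycON arrays and from -1.05 through -0.19 to 1.58 in the 27 MycOFF arrays. The MycON arrays began higher and were centred higher, and the MycOFF arrays reached further in both directions. The difference was 0.42 ± 0.13 log2 units (95% interval 0.16 to 0.68; 1.34-fold higher; limma adjusted p = 0.0302).
The difference was 0.52 ± 0.10 without the 4 arrays of wide spread (limma adjusted p = 2.97e-04). The call was lost without MycON exendin-4 16 h replicate 1, MycON water 32 h replicate 3 or MycOFF water 16 h replicate 3 (limma adjusted p = 0.0637, 0.0684 and 0.0703). It was also lost on the mean of the Mcl1 probe sets (0.19, limma adjusted p = 0.100) and with all 60 arrays (0.43, limma adjusted p = 0.419). The 8 arrays added there had beta cell marker means from -6.23 to -0.88, against -0.94 to 1.13 in the arrays used. The other 5 Mcl1 probe sets were all above 0, at 0.27 ± 0.16, 0.21 ± 0.15, 0.09 ± 0.08, 0.07 ± 0.07 and 0.05 ± 0.07, and none passed. Over the 28 probe sets of the members 1 passed in a fit of all probe sets with 1 symbol, in which 8.07% of all passed.

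**Figure D2:**
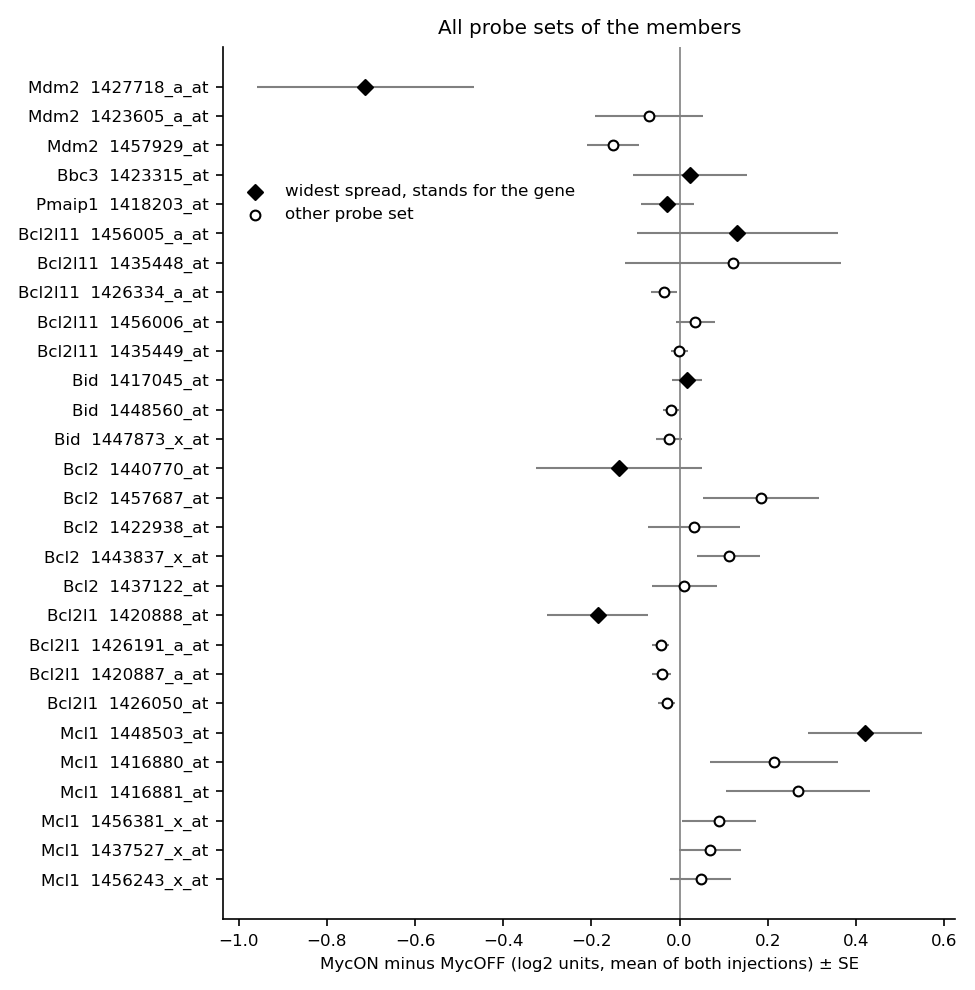
Log2 difference MycON minus MycOFF, mean of both injections (horizontal axis, log2 units, with standard error bars), for each of the 28 probe sets of the members. Filled diamonds are the probe sets that stand for their gene; the 6 Mcl1 probe sets all lie above 0, from 0.05 to 0.42, while the Bcl2 probe set that stands for its gene lies on the other side of 0 from the remaining 4.

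With water, Mcl1 differed by 0.56 ± 0.19 between MycON and MycOFF islets (95% interval 0.18 to 0.94; limma adjusted p = 0.0952), and with exendin-4 by 0.28 ± 0.18 (95% interval -0.08 to 0.64; limma adjusted p = 0.490). Neither passed over all 52 arrays, where 3.44% of all genes passed with water, 3.42% passed with exendin-4, and 0 of the 8 members passed in either. At an unadjusted p under 0.05 in limma there were 2 members with water and 1 with exendin-4. Of all 18193 genes, 2485 with water and 2576 with exendin-4 were under it. Without the 4 arrays of wide spread Mcl1 passed in both, at 0.56 with water (limma adjusted p = 0.00848) and 0.47 with exendin-4 (limma adjusted p = 0.0475), and without MycOFF exendin-4 72 h replicate 2 alone it passed with water (limma adjusted p = 0.0117). In a fit of the water groups alone it passed as well (limma adjusted p = 0.0403). The interaction was -0.28 ± 0.26 (95% interval -0.81 to 0.24).

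By time the Mcl1 difference was 0.25 at 4 h, 0.19 at 8 h, 0.45 at 16 h, 0.65 at 32 h and 0.56 at 72 h. It was above 0 at each time and passed at none over all 52 arrays (limma adjusted p from 0.352 to 1.00). At 32 h the arrays of MycON with exendin-4 were at 0.14 and -0.03 and those of MycON with water at -0.22 and 0.62, against -0.05, -0.22 and -0.66 in MycOFF with exendin-4 and -1.04, -0.24 and -0.91 in MycOFF with water. Within each injection the states did not overlap at 32 h, by a narrow margin, and over both injections they did. At 72 h MycON arrays were at -0.02, 0.98 and 0.67 with exendin-4 and at 0.42, 0.77 and 0.01 with water, while MycOFF arrays were at -0.64, 1.58 and -0.69 with exendin-4 and at -0.30 and -0.22 with water. All 6 MycON arrays at 72 h were above 4 of the 5 MycOFF arrays, and the fifth, at 1.58, was the highest Mcl1 value of all arrays used and is an array of wide spread. Without the 4 arrays of wide spread Mcl1 passed at 72 h, at 1.08 ± 0.22 (limma adjusted p = 0.00395).

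**Figure D3:**
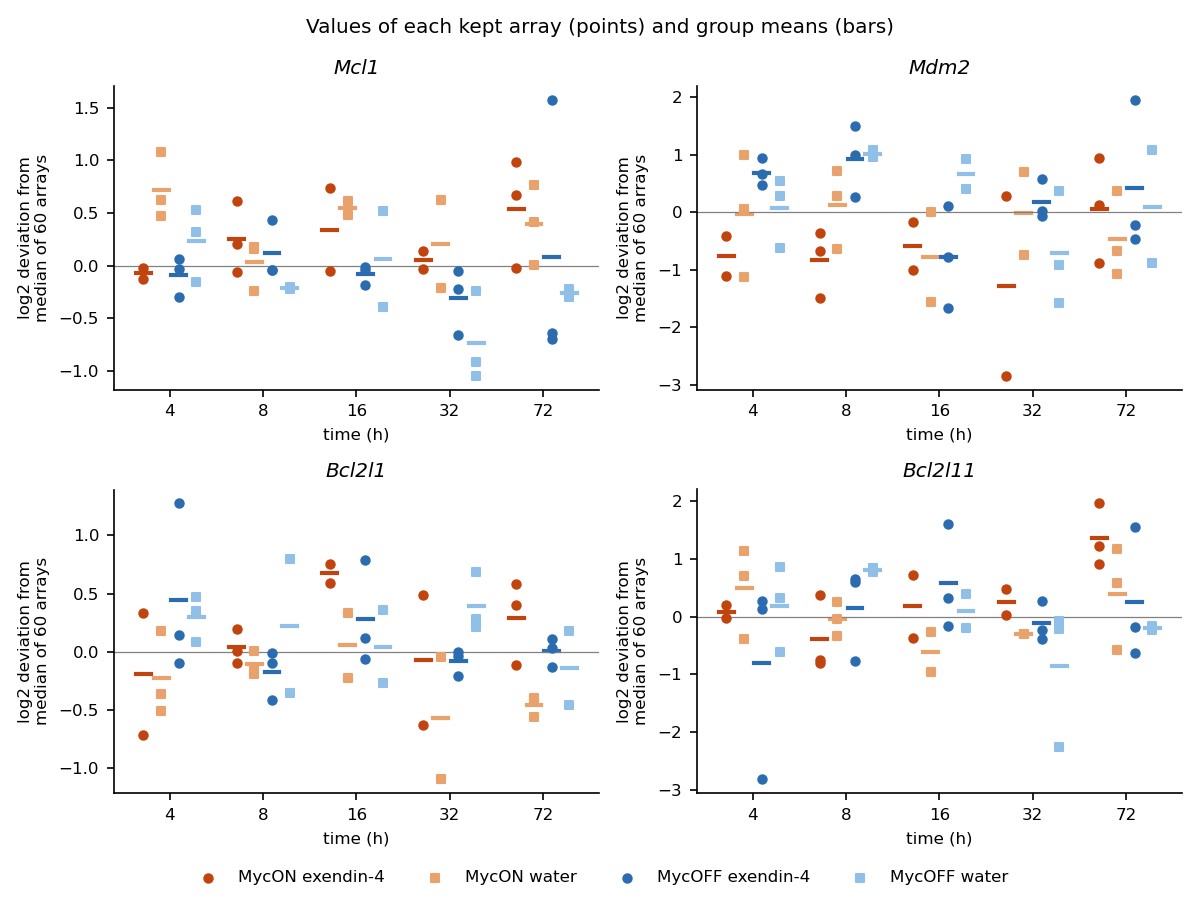
Log2 deviation from the median of the 60 arrays (vertical axes) in each array used, by time in hours (horizontal axis), for Mcl1, Mdm2, Bcl2l1 and Bcl2l11; points are arrays, bars are group means. Most Mcl1 points of MycON lie above those of MycOFF at 72 h apart from 1 MycOFF array at 1.58, all MycOFF points of Mdm2 are above 0 at 8 h, and the MycON points of Bcl2l1 split by injection at 16 and 72 h.

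At single times, 0 of the 8 members passed over all 52 arrays. The share of all genes that passed was 1.50% at 4 h, 2.38% at 8 h, 1.36% at 16 h, 2.08% at 32 h and 0.857% at 72 h. The members at an unadjusted p under 0.05 numbered 2 at 4 h, 1 at 8 h, 0 at 16 h, 1 at 32 h and 0 at 72 h in limma. Of all 18193 genes, 1680, 2147, 2454, 2174 and 1690 were under it at these 5 times. Of the members 0 passed the limma F test for a change over time. For the MycON minus MycOFF difference 0.989% of all genes passed it, with 0 members at an unadjusted p under 0.05. Within MycON islets 5.00% passed, with 1 member, Bid, under 0.05 before adjustment (limma F test, unadjusted p = 0.0173). Within MycOFF islets 0.00550% passed, with 0 members at an unadjusted p under 0.05. Among the 20 groups as a whole 3.63% of genes and 0 members passed, and 0 members were at an unadjusted p under 0.05. Of all genes, 1821 were under 0.05 before adjustment in the limma F test for the difference. The counts were 2656 within MycON islets, 702 within MycOFF islets and 2358 among the 20 groups.

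Exendin-4 against water gave 0 of 8 members past the threshold in MycON islets, where 0.0605% of all genes passed, and 0 of 8 in MycOFF islets, where 0.0934% passed. At an unadjusted p under 0.05 there was 1 member in MycON islets, Bcl2l1, and 0 in MycOFF islets in limma. Of all 18193 genes, 1003 in MycON islets and 1160 in MycOFF islets were under it. For Mcl1 the difference between exendin-4 and water was -0.16 ± 0.19 in MycON islets and 0.13 ± 0.18 in MycOFF islets. For Mdm2 it was -0.45 ± 0.36 and 0.06 ± 0.34, and for Bcl2l11 0.31 ± 0.33 and 0.01 ± 0.32, in MycON and in MycOFF islets. The 95% intervals of Mcl1 were -0.54 to 0.22 in MycON islets and -0.24 to 0.49 in MycOFF islets, so shifts within them could not be resolved with these arrays.

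Some cell type markers, those of beta cells included, also passed between MycON and MycOFF islets. Of all genes 6.56% passed higher and 3.48% lower. Of 15 immune markers 7 were higher, with a mean over the list per array from -0.77 through a median of -0.05 to 3.05 in MycON arrays and from -1.40 through -0.26 to 0.66 in MycOFF arrays. Of 11 measured beta cell markers 3 were lower, with a mean from -0.92 through -0.06 to 0.69 in MycON arrays and from -0.94 through 0.47 to 1.13 in MycOFF arrays. 1 further marker each rose among 10 stromal genes and fell among 9 endothelial genes, and single calls do not show a shift of either list. Of the acinar, duct, lymphoid and other endocrine markers 0 passed. Which of these markers were at 0 cannot be read from centred values. Their part in the Mcl1 difference, and in the differences of the pathway genes below, was not tested.

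Around the members, 2 lists of genes place them in their pathways: 45 genes of the p53 network, its activators, regulators and targets, and 44 genes of the apoptosis machinery, of which 37 were measured. In the MycON minus MycOFF difference averaged over times and injections, 8 of 45 p53 network genes passed in limma, 7 higher and 1 lower (17.8%, beside 10% of all genes). Of the apoptosis machinery 7 of 37 passed, 5 higher and 2 lower (18.9%). The median difference was -0.021 log2 units in the p53 network and -1e-04 in the apoptosis machinery, beside -0.026 over all genes. The lists thus held a few genes with large differences, and their medians were near that of all genes. Both lists were chosen with earlier results of these data known, so their shares beside that of all genes are no test of these pathways.

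Among the 8 p53 network genes that passed, the largest differences over all 52 arrays were those of kinases that act in the response to damaged or stalled DNA. Chek1, the checkpoint kinase activated by ATR, ran from -0.71 through 1.44 to 3.06 in MycON arrays and from -2.71 through -0.90 to 0.76 in MycOFF arrays, a difference of 2.11 ± 0.25 log2 units (4.31-fold higher; limma adjusted p = 3.4e-07). The lower edge of the MycON arrays overlapped the MycOFF arrays, and the MycON median was above the highest MycOFF value. Atr rose by 1.14 ± 0.14 and Chek2, the checkpoint kinase activated by ATM, by 0.95 ± 0.21 (limma adjusted p = 9.4e-07 and 0.00243). Other probe sets of Chek1 lay at -0.06, 0.11, 0.36 and 0.47, so the size of its rise rests on 1 probe set. The one at 0.47 passed as well in a fit of all probe sets with 1 symbol (limma adjusted p = 0.00502). Those of Atr lay at 0.15 and -0.003 and did not pass there, so the Atr call itself rests on 1 probe set. Chek1 and Atr passed with either injection and Chek2 with water.

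Cdkn2a, the locus of ARF, the inhibitor of MDM2, and of the cell cycle inhibitor p16, rose by 0.66 ± 0.13 (1.59-fold; limma adjusted p = 5.4e-04). Its deviation ran from -0.11 through 0.49 to 2.48 in MycON arrays and from -0.55 through -0.01 to 0.38 in MycOFF arrays, with many MycON arrays above every MycOFF array. At 32 h the MycON arrays were at 1.78 and 1.58 with exendin-4 and at 0.80 and 1.01 with water, while 6 MycOFF arrays lay between -0.15 and 0.03. There the 2 states did not overlap, and Cdkn2a rose by 1.33 ± 0.30 (limma adjusted p = 0.0105). ARF and p16 are made from shared exons, and the annotation does not say which of them the probe set reads.

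Tigar, a p53 target that steers sugar breakdown toward the pentose phosphate path, rose by 0.55 ± 0.13 on average (limma adjusted p = 0.00314), and its difference changed over time (limma F test, adjusted p = 0.00699). It was 1.39 at 4 h, 1.14 at 8 h and 1.08 at 32 h, each past the threshold, and -0.37 at 16 h and -0.49 at 72 h, which were not. At 4 h the MycON arrays were at 1.36 and 0.88 with exendin-4 and at 1.66, 1.58 and 1.35 with water, against 0.03, -0.82 and -0.52 in MycOFF with exendin-4 and 0.10, 0.46 and 0.39 in MycOFF with water. The 2 states were fully apart at 4 h. At 72 h MycON arrays were at -1.77, -0.26 and -0.89 with exendin-4 and at -0.19, -0.64 and -0.41 with water, below both MycOFF water arrays (0.24 and 0.13) and overlapping the MycOFF exendin-4 arrays (-0.50, -0.85 and -0.42).

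Usp7, the deubiquitinase that stabilises MDM2 and p53, also changed its difference over time (limma F test, adjusted p = 0.00494), while its average was -0.05 ± 0.18. The difference was 1.35 at 4 h, 1.20 at 8 h, -1.60 at 16 h, -0.07 at 32 h and -1.15 at 72 h, of which no single time passed (limma adjusted p from 0.0520 to 0.934). At 16 h the MycON arrays were at -0.70 and -0.70 with exendin-4 and at -1.12 and -1.53 with water, and the MycOFF arrays at 0.25, 0.06 and 1.22 with exendin-4 and at 0.17 and 1.16 with water. The states did not overlap there, and at 32 h they did.

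Of the remaining p53 network genes past the threshold, Siva1, a p53 target that promotes apoptosis, rose by 0.85 ± 0.23 and Zmat3, a p53 target that binds RNA, by 0.70 ± 0.18 (limma adjusted p = 0.0108 and 0.00755). At 16 h Siva1 rose by 2.20 ± 0.54 (limma adjusted p = 0.0271), a time at which 1 MycOFF array of wide spread was at -3.93 and the other 4 were between -0.76 and -0.30. Without the arrays of wide spread that call was lost (1.66 ± 0.49, limma adjusted p = 0.117). Plk3, a stress-responsive kinase, fell by 0.50 ± 0.16 (limma adjusted p = 0.0400), and this call was lost without any 1 of 28 of the 52 arrays (limma adjusted p up to 0.0820) and with the replicate number as a block (-0.46, limma adjusted p = 0.0550). Cdkn1a, the gene of p21 and the best known p53 target, did not pass, at 1.00 ± 0.35 (95% interval 0.28 to 1.71; limma adjusted p = 0.0682), and is named because of its place in the pathway. At 72 h no p53 network gene passed, and the smallest p-values were those of Xpc (-1.56, limma adjusted p = 0.0613), a DNA damage sensor, and Chek1 (2.00, limma adjusted p = 0.0688).

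Over all 52 arrays, Plk3 was the gene of either list that differed with exendin-4. In MycOFF islets it ran from -0.71 through 1.00 to 2.52 log2 units in the 15 arrays with exendin-4 and from -0.97 through -0.21 to 0.57 in the 12 arrays with water. Most exendin-4 arrays lay above the highest water array. The difference was 1.20 ± 0.22 (2.29-fold higher; limma adjusted p = 0.0126), and the call ended in fits with all 60 arrays (1.24, limma adjusted p = 0.107) and with the 2 groups alone (1.20, limma adjusted p = 0.123). In MycON islets the difference of Plk3 between exendin-4 and water was 0.65 ± 0.23 (limma adjusted p = 0.546), and the interaction was -0.54 ± 0.32, which did not pass. With exendin-4, Plk3 differed by -0.78 ± 0.22 between MycON and MycOFF islets (limma adjusted p = 0.0455). In MycON islets no gene of the p53 list passed with exendin-4, and the smallest p-values were those of Gadd45a (1.59 ± 0.38, limma adjusted p = 0.124) and Xpc (-0.88 ± 0.28, limma adjusted p = 0.390). Gadd45a passed there without the arrays of wide spread (1.75 ± 0.31, limma adjusted p = 0.00839).

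**Figure D4:**
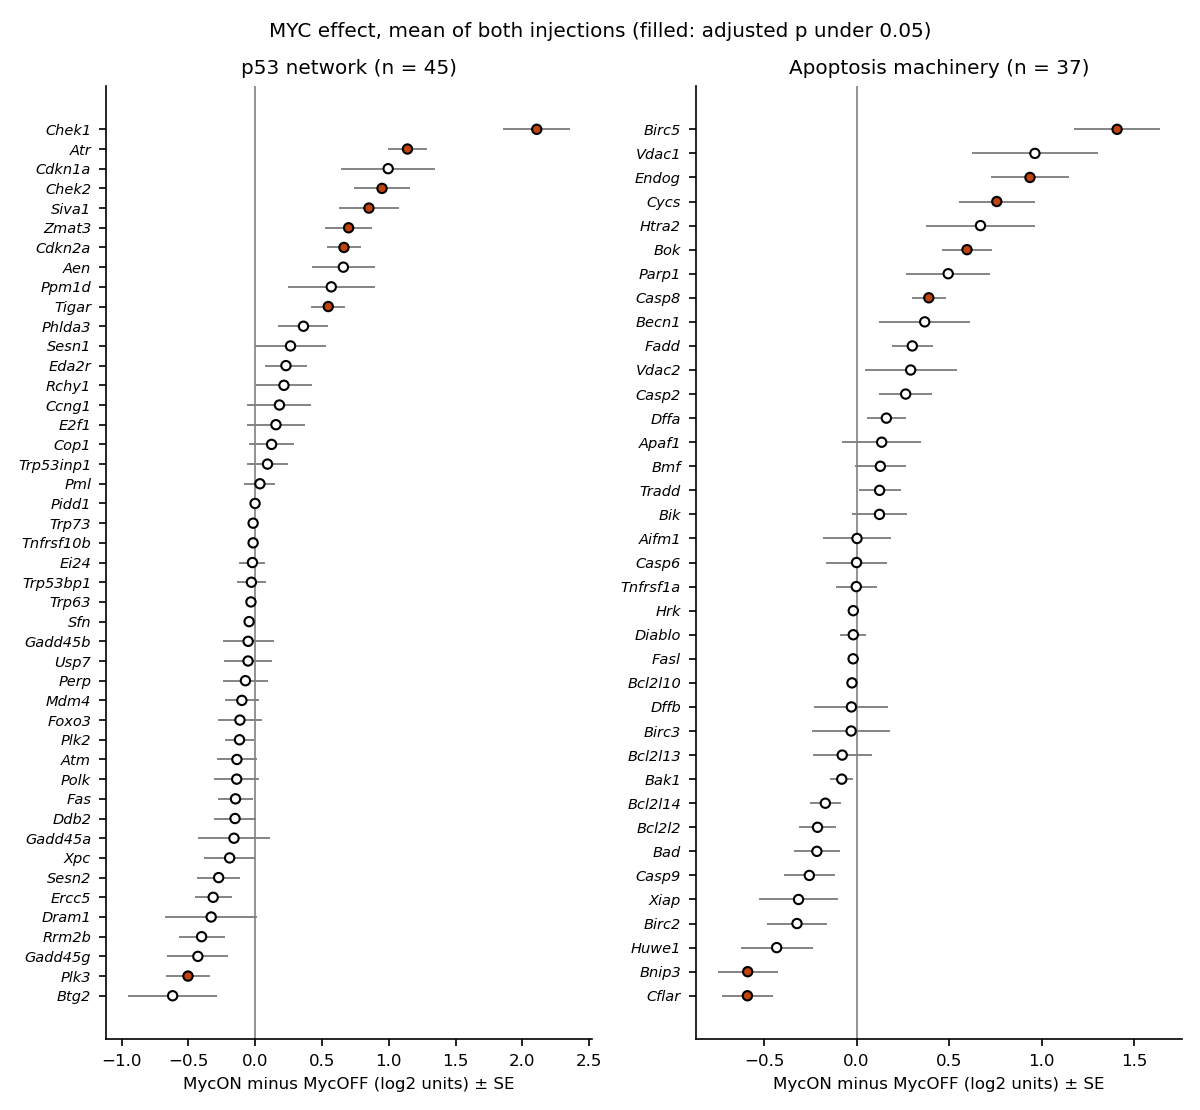
Log2 difference MycON minus MycOFF, mean of both injections (horizontal axes, log2 units, with standard error bars), of the 45 measured genes of the p53 network and the 37 of the apoptosis machinery, ordered by size. Filled points passed the threshold, 8 on the left and 7 on the right, with Chek1 at 2.11 and Birc5 at 1.41 at the top.

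In the apoptosis machinery the highest was Birc5, the gene of survivin, which is an inhibitor of apoptosis family protein and also part of the chromosomal passenger complex of dividing cells. Birc5 rose by 1.41 ± 0.23 (2.65-fold; limma adjusted p = 6.3e-05), and its difference changed over time (limma F test, adjusted p = 0.0228). The difference was -0.49 at 4 h, 1.76 at 8 h, 3.49 at 16 h, 0.54 at 32 h and 1.74 at 72 h, and 16 h passed alone (limma adjusted p = 6.3e-04). Without the arrays of wide spread 8 h and 72 h passed as well (1.76 and 2.37, limma adjusted p = 0.0216 and 0.00579). At 16 h the MycON arrays were at 1.18 and 3.08 with exendin-4 and at 4.67 and 3.09 with water, while the 5 MycOFF arrays were at -0.64, -0.85, -0.01, -0.58 and -0.35. The states were fully apart at 16 h, and at 4 h the MycON arrays with water were the lowest.

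Casp8, the initiator caspase of the death receptor path that cleaves BID, rose by 0.39 ± 0.09 on average (limma adjusted p = 0.00437). It rose by 0.89 ± 0.22 at 16 h and by 0.84 ± 0.20 at 72 h (limma adjusted p = 0.0307 and 0.0304), and was at -0.35 at 4 h and 0.09 at 8 h. At 72 h the MycON arrays were at 1.38, 0.70 and 0.89 with exendin-4 and at 0.18, 1.48 and 0.33 with water, against -0.25, 0.37 and -0.36 in MycOFF with exendin-4 and -0.001 and 0.10 in MycOFF with water. The MycON arrays with exendin-4 were all above the MycOFF arrays, and those with water overlapped 1 of them. Cflar, the gene of FLIP, which blocks caspase 8, fell by 0.59 ± 0.14 (limma adjusted p = 0.00391), and at 8 h it fell by 1.13 ± 0.30 (limma adjusted p = 0.0350). A further Cflar probe set was at -0.40 and the other 3 between -0.06 and 0.00.

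Among genes that act at the mitochondrion, Bok, a pore-forming relative of BAX, rose by 0.60 ± 0.13 and Endog, a mitochondrial nuclease, by 0.94 ± 0.21 (limma adjusted p = 0.00225 and 0.00240). The median of Bok was 0.10 in MycON arrays (-0.16 to 2.11) and -0.05 in MycOFF arrays (-0.65 to 0.30), so its mean difference came from a minority of MycON arrays. Bok rose by 1.28 ± 0.32 at 16 h and Endog by 1.63 ± 0.45 at 8 h (limma adjusted p = 0.0298 and 0.0469). Without the arrays of wide spread the call of Bok at 16 h was lost (1.29, limma adjusted p = 0.0781), and Endog also passed at 4 h and 32 h (1.29 and 1.36, limma adjusted p = 0.00538 and 0.00251). Bnip3, a BH3-like mitophagy receptor, fell by 0.59 ± 0.16 on average and by 1.35 ± 0.35 at 8 h (limma adjusted p = 0.0147 and 0.0288). Cycs, the gene of cytochrome c, rose by 0.76 ± 0.20 (limma adjusted p = 0.0126) and was named after its values were seen. Bcl2l2, the gene of the anti-apoptotic protein BCL-W, fell by 0.96 ± 0.23 at 32 h (limma adjusted p = 0.0182) and was at -0.21 ± 0.10 on average, which did not pass.

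**Figure D5:**
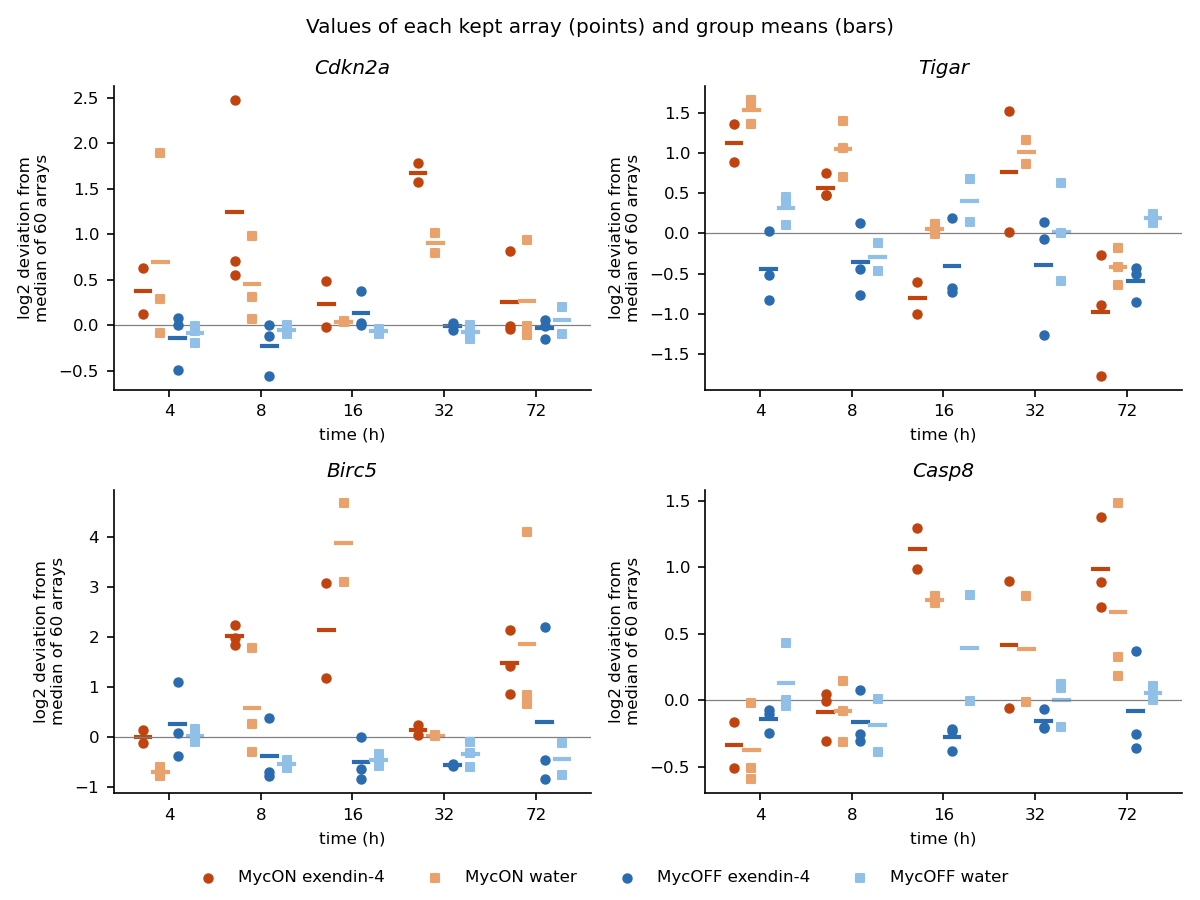
Log2 deviation from the median of the 60 arrays (vertical axes) in each array used, by time in hours (horizontal axis), for Cdkn2a, Tigar, Birc5 and Casp8; points are arrays, bars are group means. Tigar points of MycON are above 0 at 4, 8 and 32 h and below 0 at 72 h, Birc5 of MycON reaches 4.67 at 16 h, and Cdkn2a of MycON is apart from MycOFF at 32 h.

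Per injection, 3 of 45 p53 network genes passed with water (6.67%) and 4 with exendin-4 (8.89%). Of the apoptosis machinery 3 of 37 passed with each (8.11%). Of all genes 3.44% passed with water and 3.42% with exendin-4. The lists were chosen with earlier results known, so these shares are no test of the pathways. With water the genes that passed were Chek1, Atr and Chek2, and Birc5, Endog and Bok. With exendin-4 they were Chek1, Atr, Cdkn2a and Plk3, and Birc5, Casp8 and Cflar. None of the interactions passed, so none of these genes was shown to differ between injections. With all 60 arrays, 10 of the 15 calls of the averaged difference in these lists were lost (limma adjusted p from 0.0513 to 0.704). Chek1, Atr, Cdkn2a, Endog and Cycs kept theirs. The 60 include the 8 arrays set aside, whose cell type marker values are given further below. Leaving out 1 array ended the call of Bok with water in 14 cases, of Chek2 with water in 16, of Endog with water in 13, of Cflar with exendin-4 in 36 and of Plk3 with exendin-4 in 28 of 52 (limma adjusted p up to 0.132, 0.185, 0.109, 0.172 and 0.126). Without the arrays of wide spread the call of Cflar with exendin-4 was lost (-0.57, limma adjusted p = 0.154) and Tigar passed with exendin-4 (0.65, limma adjusted p = 0.0284).

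At 4 h no apoptosis machinery gene passed between MycON and MycOFF over all 52 arrays, and the smallest p-values were those of Diablo, which antagonises inhibitor of apoptosis proteins (-0.41, limma adjusted p = 0.268), and Endog (1.22, limma adjusted p = 0.270). Diablo passed there without the arrays of wide spread (-0.52, limma adjusted p = 0.0247). Exendin-4 left all 37 short of the threshold. The smallest p-values were those of Cflar (-0.58) and Dffb (0.80), a nuclease that cuts DNA in apoptosis, in MycON islets, and of Casp2 (-0.52) and Xiap (-0.75) in MycOFF islets (limma adjusted p from 0.521 to 0.617). In the interaction they were Casp8 (0.40 ± 0.19) and Casp2 (0.48 ± 0.29), and for the p53 network Gadd45a (1.03 ± 0.53) and Plk3.

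Within MycON islets, time changed Tigar, Usp7, Atr and Zmat3 of the p53 network and Casp8, Birc5, Cflar and Bmf, a BH3-only gene, of the apoptosis machinery (limma F test, adjusted p from 1.4e-05 to 0.0356), which is 4 of 45 and 4 of 37 beside 5.00% of all genes. Within MycOFF islets 0 of either list passed the limma F test, where 0.00550% of all genes did. At an unadjusted p under 0.05 there were 4 of 45 and 2 of 37, beside 702 of all 18193 genes. Bmf no longer passed within MycON islets without the arrays of wide spread (limma F test, adjusted p = 0.104). A difference in the time course between the states was shown for Usp7, Tigar and Birc5, and without those arrays also for Atr and Endog (limma F test, adjusted p = 0.0363 and 0.00341).

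The genes whose pattern over the 20 group means was most like that of a member were taken for the 3 members with the smallest p over all groups. For Mcl1 these were Usp1, a deubiquitinase of DNA repair, with a Pearson correlation of 0.798, and Clec4d, a lectin receptor of myeloid cells, with 0.789. For Bcl2l1 they were Zbtb22 (0.843) and Rnf185 (0.779), and for Bid they were St3gal4 (0.914) and Fam216b (0.875), both as narrow in spread as Bid, with interquartile ranges of 0.058 and 0.051 log2 units. The group means of all genes come from the same arrays, and these are the highest correlations of each member among the 18193 genes tested.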

How the data were processed

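Islet RNA of 60 samples was measured on Affymetrix arrays, from 15 µm sections and per the labels' protocols each array took 6 µg of labelled RNA. The authors deposited log2 values for 45101 probe sets. MAS5 and GCRMA stand in the submitters' processing notes, without their role or version. Base 2 was inferred from the range of -12.3 to 12.8, since no label gives the base. Every probe set had a median of 0 over the 60 arrays (100% of probe sets, tolerance 1e-04), so each value is a deviation and a fold is 2 to the power of a difference between such values. The scanner intensities and detection calls were not used here.

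Of the probe sets 34945 had 1 symbol, 932 had several, 9160 had none and 64 were controls, which did not enter. Of the symbols 34741 matched the RefSeq table of GRCm38.p6 by Entrez number and 0 were updated. The 52 arrays kept by the submitters were fitted with limma 3.58.1 (R 4.3.3, data.table version 1.17.8) as 20 group means, 12 of 3 arrays and 8 of 2, with no spread filter and no block (32 residual and 1.26 prior degrees of freedom). The threshold was 0.05 on p adjusted by Benjamini-Hochberg over all 18193 genes, and every adjusted p in the text is from this limma model or the alternative named. Errors are standard errors and intervals have a level of 95%. For changes over time limma's moderated F test was used. The number of arrays limits the precision. The members and lists were chosen with earlier results of these data known. From each list up to 5 genes past the threshold were named per comparison, smallest p first, and where none passed the 2 with the smallest p. The fit was tested on simulated data, and figures were drawn with matplotlib 3.10.9. Alternatives covered scaling, arrays, probe sets, spread filter, array weights, the arrays in the fit, the replicate block and each array left out.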

Additional observations from a re-analysis of the deposited data

Results flagged for a closer look

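The 8 arrays that the submitters set aside enter no comparison above. Among them several members were above every 1 of the 52 arrays used. Mcl1 was so in 7 of the 8, at 3.29 (MycON exendin-4 4 h replicate 3), 2.08 (MycON exendin-4 16 h replicate 2), 2.82 (MycON exendin-4 32 h replicate 3), 2.69 (MycON water 16 h replicate 3), 3.12 (MycOFF water 8 h replicate 2), 2.94 (MycOFF water 16 h replicate 1) and 3.18 log2 units (MycOFF water 72 h replicate 2), where the arrays used reached 1.58. Bid was so in the same 7, at 1.44, 1.01, 0.86, 1.12, 3.6, 2.23 and 0.84 in that order, where the arrays used reached 0.72. Pmaip1 was so in 5, at 2.88 (MycON exendin-4 4 h), 1.55 (MycON water 32 h replicate 1), 1.78 (MycOFF water 8 h), 3.18 (MycOFF water 16 h) and 3.67 (MycOFF water 72 h). Bcl2 was so in 3, at 3.67 (MycON exendin-4 4 h), 4.13 (MycOFF water 8 h) and 2.9 (MycOFF water 72 h), and Bcl2l11 in 1, at 2.06 (MycON exendin-4 4 h). Mdm2, Bbc3 and Bcl2l1 were so in 0 of the 8.

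In the same 8 arrays the mean of the beta cell markers ran from -6.23 to -0.88, against -0.94 to 1.13 in the arrays used. The means of the lymphoid and of the stromal markers were each above every array used in 4 of the 8, reaching 5.76 and 4.85. The part of these markers in the values of the members was not tested.

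The difference between MycON and MycOFF islets changed over time, by an F test of that change, for 3 pathway genes named above: Usp7 (limma adjusted p = 0.00494), Tigar (limma adjusted p = 0.00699) and Birc5 (limma adjusted p = 0.0228). The groups held 2 or 3 arrays each, and no test for a single outlying array was run.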

How the results depend on the processing

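Of 347 values of the members under settings other than probe set and left-out array, 285 kept their direction and side of the threshold, and 53 changed sign, 0 of them past the threshold. The cause of each change below was not tested. Number of arrays, centred values and unknown distance from background limit the precision of all members.

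Counts of genes past the threshold (main count in parentheses) moved as follows. Quantile normalization gave 986 with water (625), 959 with exendin-4 (623), 535 at 4 h (273), 753 at 8 h (433), 1012 at 32 h (378), 42 for exendin-4 in MycOFF islets (17), 306 for the change of the difference over time (180), 3 for time in MycOFF islets (1) and 2 members (1). Centring each array gave 2 for time in MycOFF islets. All 60 arrays gave 951 for the average over injections (1828), 153 with water, 70, 171, 46, 117 and 9 at the 5 times (main counts 273, 433, 247, 378 and 156), 2 and 5 for exendin-4 in MycON and MycOFF islets (11 and 17), 16 for the change over time, 226 and 0 for time in MycON and MycOFF islets (909 and 1), 0 members, 3 p53 network genes (8) and 3 apoptosis genes (7). Averaging probe sets gave 37 for exendin-4 in MycOFF islets, 289 for the change over time, 2 for time in MycOFF islets and 11 apoptosis genes. The spread filter gave 30 for exendin-4 in MycOFF islets and 2 members. Array weights, whose estimation did not fully converge, gave 1172 with exendin-4, 1597 at 8 h, 1053 at 16 h, 2111 at 32 h, 85 at 72 h, 34 for exendin-4 in each state, 738 for the change over time, and 2840 and 347 for time in MycON and MycOFF islets. Fitting the compared groups alone gave 208 at 8 h, 4 at 16 h, 2 at 72 h, 6 for exendin-4 in MycOFF islets and 0 for time there. Without the 4 arrays of wide spread there were 664 at 8 h, 568 at 32 h, 433 at 72 h, 23 for exendin-4 in MycON islets, 1 for the interaction (0) and 283 for the change over time.

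Same-numbered arrays did not deviate together (median correlation -0.041 over 66 pairs, with 15 over 0.1), so the replicate numbers were not taken as pairs. The replicate block gave 2 members, with Mdm2 at -0.753 (limma adjusted p = 0.0484), ended the call of Plk3 (-0.457, limma adjusted p = 0.0550), turned Bbc3 to -0.017 and, for exendin-4 in MycOFF islets, Bcl2l11 to -0.005, and changed no other call. Mcl1 with water passed with its compared groups alone (0.563, limma adjusted p = 0.0403).

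Without 1 array the count ranged from 1606 to 2222 for the average, 416 to 818 with water, 428 to 758 with exendin-4, 175 to 310, 194 to 518, 66 to 605, 176 to 436 and 97 to 482 at the 5 times, 3 to 76 and 11 to 44 for exendin-4 in MycON and MycOFF islets, 0 to 15 for the interaction, 143 to 279 for the change over time, and 595 to 1062 and 0 to 118 for time in MycON and MycOFF islets. Members past the threshold ranged from 0 to 2, p53 network genes from 7 to 9 and apoptosis genes from 7 to 8.

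The members that changed sign, in log2 units and all short of the threshold, were these. For MycON minus MycOFF averaged over injections they were Pmaip1 0.008 and Bcl2 0.264 under quantile normalization, Bid -0.003 after centring, Bbc3 -0.131, Bcl2l11 -0.140 and Bid -0.066 with all 60 arrays, Bid -0.009 and Bcl2 0.040 on the mean of probe sets, and on single other probe sets Bcl2l11 -0.036 and -0.001, Bid -0.025 and -0.019 and Bcl2 0.032, 0.011, 0.111 and 0.185. With water they were Pmaip1 0.002 and Bcl2 0.263 under quantile normalization, Bbc3 -0.020 and Bid -0.353 with all 60 arrays, Bcl2 0.022 on the mean of probe sets, Bbc3 -0.035 with array weights, and Bcl2l11 0.003, Bid -0.002 and Bcl2 0.032, 0.065 and 0.185 on other probe sets. With exendin-4 they were Pmaip1 0.013, Bid -0.004 and Bcl2 0.265 under quantile normalization, Bid -0.020 after centring, Pmaip1 0.200 and Bcl2 0.217 with all 60 arrays, and Bid -0.025, Bcl2 0.059 and Bcl2l1 -0.022 on the mean of probe sets. There Bbc3 was 0.043 with array weights and 0.016 without the 4 arrays, and other probe sets gave Bcl2l11 -0.052 and -0.005, Bid -0.047 and -0.048, Bcl2 0.033, 0.061, 0.158 and 0.185, and Bcl2l1 -0.056, -0.040 and -0.046.

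For exendin-4 against water in MycON islets they were Bid -0.008 and Bcl2 -0.026 under quantile normalization, Mcl1 0.240 with all 60 arrays, Bcl2 -0.117 with array weights and -0.106 without the 4 arrays, and on other probe sets Mdm2 0.050, Bcl2l11 -0.048, Bid -0.017, Bcl2 -0.007 and Mcl1 0.287. In MycOFF islets they were Bbc3 0.015, Bcl2l11 -0.032 and Bcl2 -0.028 under quantile normalization, Bcl2l11 -0.016 after centring, and Bbc3 0.095, Pmaip1 -0.484, Bcl2l11 -0.218, Bid -0.434, Bcl2 -0.425, Bcl2l1 0.015 and Mcl1 -0.518 with all 60 arrays. There the mean of probe sets gave Bcl2l11 -0.064, Bcl2l1 0.007 and Mcl1 -0.069, array weights gave Bcl2l11 -0.147 and Mcl1 -0.006, and leaving out the 4 arrays gave Mdm2 -0.003, Bbc3 0.013, Bcl2l11 -0.026, Bcl2 -0.072 and Mcl1 -0.009. Other probe sets gave Mdm2 -0.069, Bcl2l11 -0.409 and -0.001, Bcl2 -0.068 and -0.007, Bcl2l1 0.041, 0.031 and 0.026, and Mcl1 -0.375, -0.195, -0.175 and -0.250.

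Leaving out 1 array changed the sign of MycON minus MycOFF for Bbc3 (-0.051 to 0.099) and Bid (-0.015 to 0.048) on average, for Bbc3 (-0.070 to 0.231), Bcl2 (-0.279 to 0.014), Bcl2l11 (-0.163 to 0.075), Bid (-0.047 to 0.072) and Pmaip1 (-0.079 to 0.025) with water, and for Bbc3 (-0.141 to 0.077), Bcl2l1 (-0.057 to 0.166), Bid (-0.042 to 0.084) and Pmaip1 (-0.090 to 0.020) with exendin-4. It did so for exendin-4 against water for Bcl2 (-0.106 to 0.200) and Bid (-0.048 to 0.078) in MycON islets, and for Bbc3 (-0.151 to 0.151), Bcl2 (-0.040 to 0.253), Bcl2l1 (-0.185 to 0.045), Bcl2l11 (-0.136 to 0.206), Bid (-0.003 to 0.017), Mcl1 (-0.024 to 0.217) and Mdm2 (-0.137 to 0.254) in MycOFF islets.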
